A study of Homo sapiens with 6 samples.

Results

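Lysosomal enzymes and membrane proteins were taken as 36 genes listed by symbol. Of these, 34 could be read by a probe set that names no other gene, out of 19775 such genes on the array. A probe set is the group of short probes on the array that reads 1 transcript. GLB1 and CD68 were read only together with another gene and are left out of the counts. Where a gene had several, the one that was brightest on average across the 6 arrays was used. The 34 genes were divided into 8 cathepsins, 10 other hydrolases, 7 membrane proteins, 4 subunits of the proton pump, 3 luminal proteins, namely NPC2, PSAP and GRN, and the pair TFEB and SQSTM1. OCI-AML3, a human acute myeloid leukaemia cell line with a mutation of nucleophosmin, was given the solvent DMSO (3 samples) or 1 μM Vorinostat, an inhibitor of histone deacetylases, for 24 h (3 samples). The samples of each group carried the replicate numbers 1, 2 and 3, and RNA of each was hybridised to 1 Affymetrix HG-U133 Plus 2.0 array. Whether the samples of a group came from separate cultures is not given in the sources used here, and the p-values therefore reflect no more than the spread among the 6 arrays, part of which may be technical. In such bulk RNA, fewer cells of a type and less RNA per cell cannot be told apart. All samples came from this 1 cell line.

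The lysosome is the acidic organelle in which cells break down proteins, glycans and lipids delivered by endocytosis and autophagy. A proton-pumping ATPase acidifies it, hydrolases act in its lumen, and heavily glycosylated membrane proteins line and protect its wall. The transcription factor TFEB and its relative TFE3 bind an E-box, a short palindrome, before many lysosomal genes, and leukaemic cells of the myeloid line are rich in lysosomal proteases.

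Its core, CACGTG, lay in the promoters of 8 of the 28 genes with a RefSeq promoter window (28.6%), against 8.77% of the 27305 genes with such a window. Each window held 250 bases before and 50 bases after a transcription start, on GRCh38.p14. The 7 letters TCACGTG, searched on both strands and holding the core, were found for 7 of the 28 genes (25.0%) against 4.49% of all genes, and the 8 letters TCACGTGA for 5 of the 28 (17.9%) against 1.18%. The full palindrome, the core with GT before it and AC after it, was found for GAA and MCOLN1, which is 2 of the 28 genes (7.14%) against 0.421%. Among 64 further lysosomal genes with a window, 20 held the core. The stretches before the start of the 7 genes with TCACGTG are shown 5′ to 3′ on the strand of the gene, because it was shared by cathepsins, other hydrolases, membrane proteins and a pump subunit, with the core in capitals. LAMP1 is chr13:113297029-113297238 (plus strand), MCOLN1 chr19:7522524-7522623 (plus), GAA chr17:80101481-80101580 (plus), CTSA chr20:45891235-45891334 (plus), ATP6V0D1 chr16:67481158-67481257 (minus), CTSD chr11:1763928-1764027 (minus) and NEU1 chr6:31862822-31862971 (minus).
LAMP1: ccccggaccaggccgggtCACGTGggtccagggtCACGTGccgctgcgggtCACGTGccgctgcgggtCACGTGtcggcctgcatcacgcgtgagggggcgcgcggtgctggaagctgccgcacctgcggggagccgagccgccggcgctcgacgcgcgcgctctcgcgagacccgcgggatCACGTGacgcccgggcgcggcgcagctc
MCOLN1: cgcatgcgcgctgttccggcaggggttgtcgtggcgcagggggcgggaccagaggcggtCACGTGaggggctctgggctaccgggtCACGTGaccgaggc
GAA: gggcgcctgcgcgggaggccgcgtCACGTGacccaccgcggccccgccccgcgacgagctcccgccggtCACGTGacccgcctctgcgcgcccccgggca
CTSA: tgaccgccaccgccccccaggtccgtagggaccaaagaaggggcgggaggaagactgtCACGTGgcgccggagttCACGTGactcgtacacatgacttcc
ATP6V0D1: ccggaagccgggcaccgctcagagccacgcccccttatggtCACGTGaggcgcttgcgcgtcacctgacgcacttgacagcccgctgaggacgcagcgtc
CTSD: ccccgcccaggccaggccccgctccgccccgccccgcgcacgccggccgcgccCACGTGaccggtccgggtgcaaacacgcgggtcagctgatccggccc
NEU1: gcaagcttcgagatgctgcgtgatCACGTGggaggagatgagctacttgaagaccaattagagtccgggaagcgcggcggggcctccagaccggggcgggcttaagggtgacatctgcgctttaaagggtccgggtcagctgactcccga
LAMP1, which encodes an abundant glycoprotein of the lysosomal membrane, held 6 copies of the core, 5 of them in the stretch shown and 1 lying across the start. GAA, CTSA and MCOLN1 held 2 copies each, and ATP6V0D1, CTSD, NEU1 and CD63 held 1. The median difference between Vorinostat and DMSO, on the log2 scale, was -0.26 for the 8 genes with the core. It was -0.08 for the 18 other genes with a window and a probe set. For the 5 genes with TCACGTGA it was 0.13, and for the 21 without it -0.24. The 0.13 is the value of MCOLN1, which like CTSD and NEU1 had both group means under 3. CTSA and ATP6V0D1 differed by 0.415 and 0.399, and GAA and LAMP1 by -0.246 and -0.275. Genes with the sequence thus had differences of both signs, and a link to direction was not tested. A match of letters is a description and does not show binding.

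**Figure D1:**
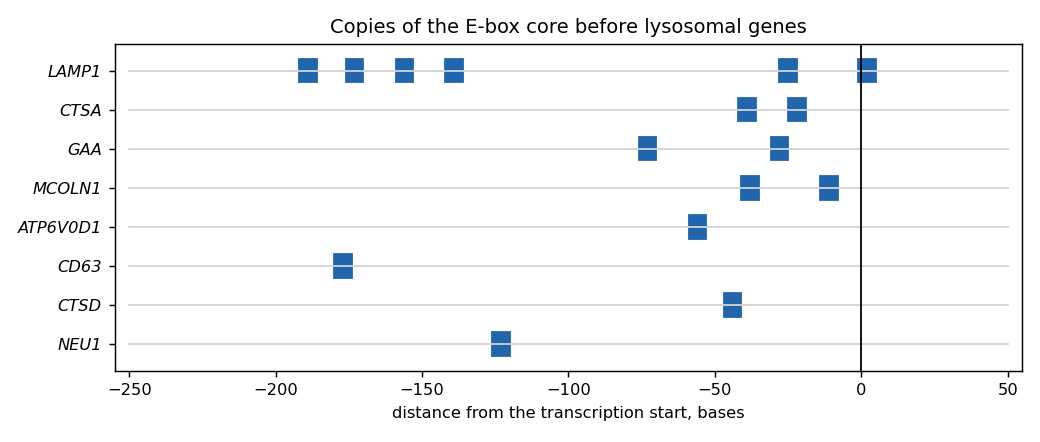
Copies of the E-box core in the promoter windows of 8 lysosomal genes. The horizontal axis is the distance in bases from the transcription start, grey lines span the window of 250 bases before to 50 after, and each blue box is 1 copy. LAMP1 holds 6 copies, 4 of them starting between -192 and -142, and GAA, CTSA and MCOLN1 hold 2 each.

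Signal differed between the arrays far more than between the treatments. The 2 arrays of replicate number 1 had 8645 and 8158 probe sets exceeding 3 on the log2 scale, whereas the other 4 had between 2761 and 3731. Of 8 myeloid markers with a probe set, CEBPA and LYZ had a group mean over 3, whereas MPO, SPI1, CD14, ITGAM, CSF1R and ANPEP did not. Of 29 markers of other cell types 3 did, namely EPOR, COL1A2 and PECAM1. The erythroid markers summed to between 4.93 and 8.63 on the DMSO arrays and between 7.17 and 10.7 on the Vorinostat arrays, with EPOR the only one of 3 over 3, and the groups overlapped. The 5 endothelial markers summed to between 8.36 and 8.80 on the DMSO arrays and between 10.0 and 10.7 on the Vorinostat arrays, which did not overlap. For none of the 5 alone did all Vorinostat arrays lie on one side of the DMSO arrays, which was so for 4.25% of all genes. PECAM1, the 1 endothelial marker with a group mean over 3, differed by 1.95, 0.17 and 0.57 in numbers 1, 2 and 3, while VWF, CDH5, KDR and TEK had both means under 3. The dim TEK differed by -0.10, 0.65 and 1.17, so much of the rise of the sum in numbers 2 and 3 came from it. The part of these markers in the results below was not tested.

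The lysosomal genes followed the arrays. With DMSO, 30 of the 34 genes lay above a log2 value of 3 on replicate 1, 17 on replicate 2 and 11 on replicate 3. With Vorinostat the numbers were 26, 13 and 14. Across all genes the share above 3 was 27.7% and 26.2% on the replicate 1 arrays and between 9.31% and 13.1% on the others. For 31 of the 34 genes both replicate 1 arrays lay above the other 4 arrays, an order that was not counted over all genes. In total 23 genes had a group mean over 3, and 11 had both means under it, namely CTSD, CTSH, CTSL, CTSS, HEXA, NEU1, SCARB2, NPC1, MCOLN1, TFEB and SQSTM1, so the sizes of their differences are poorly measured.

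Without the replicate block, none of the 34 lysosomal genes passed a test of Vorinostat against DMSO. By limma, fitted over 54613 probe sets, 0 of the 34 had an adjusted p under 0.05, against 0.0% of all genes, and 0 had an unadjusted p under 0.05, against 0.991% of all genes. The methods' t-test, a two-tailed test at the same unadjusted threshold, gave 0 as well, and the smallest unadjusted p among the 34 from limma was 0.228, that of MCOLN1. With a difference over 2-fold required as well, which is the threshold of the study, the count was 0 against 0.0961% of all genes. The means differed over 2-fold for LAPTM5 alone, 1 of the 34 (2.94%) against 1.93% of all genes. For no gene did the 3 Vorinostat arrays all lie on one side of the 3 DMSO arrays, which was so for 4.25% of all genes. The adjusted p from limma was 1 for each of the 34 genes. For the 15 genes with a mean over 4, the standard error lay between 0.596 and 1.92 on the log2 scale, so that a change of 2-fold lay inside the 95% interval of each. With the replicate number as a block the intervals were narrower, and for 5 of the 15, CTSC, ASAH1, LAMP1, LAMP2 and ATP6AP1, the 95% interval held no 2-fold difference in either direction.

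In all, 22 of the 34 had a negative difference (64.7%) against 53.1% of all genes, and 13 of the 23 with a group mean over 3 (56.5%) against 67.8% of all such genes. Compared within replicate numbers, the genes split. In number 1, 22 of the 34 were lower with Vorinostat, in number 2 it was 28 and in number 3 it was 11. The shares of all genes lower in these numbers were 51.0%, 55.8% and 45.3%, and of all genes with a group mean over 3 they were 59.1%, 82.9% and 34.8%. Of the 23 lysosomal genes with a group mean over 3, 14 were lower in number 1 (60.9%), 21 in number 2 (91.3%) and 7 in number 3 (30.4%), which is close to those shares. Lower in each of the 3 numbers were CTSL, NEU1, TPP1, LAPTM5, ATP6V1A and ATP6V1H, 6 of the 34 (17.6%) against 13.7% of all genes, and 4 of the 23 with a group mean over 3 (17.4%) against 20.4%. Higher in each were CTSC and TFEB, 2 of the 34 (5.88%) against 13.0% of all genes, and 1 of the 23 (4.35%) against 7.43%. Lower in number 2 but higher in number 3 were 18 of the 34 (52.9%) against 30.2% of all genes, and 14 of the 23 (60.9%) against 52.3%. The replicate numbers were taken to pair the arrays, but the values set only number 1 apart. Deviations from the group means correlated at 0.599 and 0.672 for the same-numbered arrays of numbers 2 and 3. With these 2 numbers swapped they correlated at 0.594 and 0.695, so results by number 2 or 3 rest on the labels. With the number as a block limma gave 1 gene with an unadjusted p under 0.05, ATP6V1H (2.94% of the 34, against 5.37% of all genes in either direction and 3.12% lower). Its adjusted p with the block was 0.887, and at the threshold of the study the block gave 0 of the 34 against 0.829% of all genes.

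**Figure D2:**
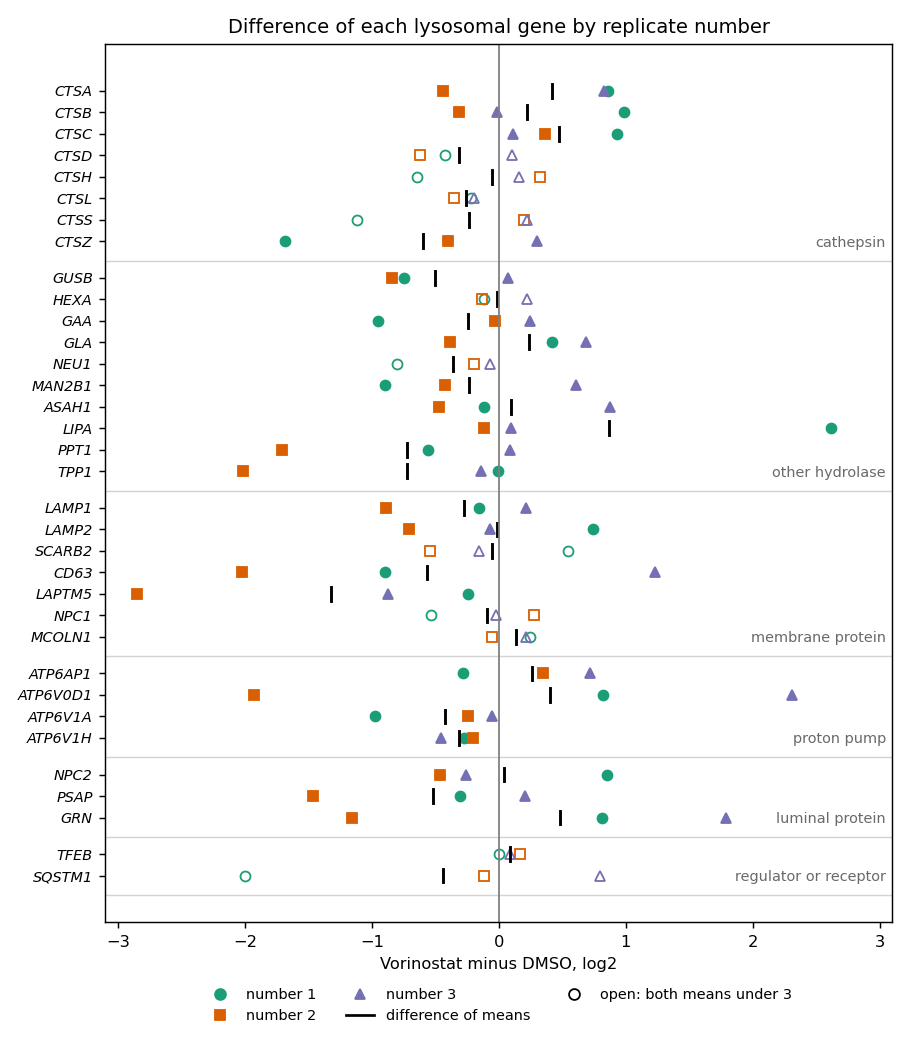
Vorinostat minus DMSO for each of the 34 lysosomal genes on the log2 scale, by class. Points are the differences within replicate numbers 1, 2 and 3, black bars the difference of the group means (n = 3), and open points mark genes with both means under 3. The square of number 2 lies below 0 for 28 of the 34 genes and the triangle of number 3 for 11.

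Cathepsins, the proteases of the lysosome, had differences between -0.60 and 0.47, 5 of the 8 negative, against 53.1% of all genes. Their medians were -0.32, -0.34 and 0.14 in numbers 1, 2 and 3. CTSC, the cathepsin that activates the serine proteases of granulocytes, had log2 values of 6.99, 3.62 and 4.06 on DMSO replicates 1, 2 and 3 and of 7.92, 3.99 and 4.17 on the Vorinostat replicates. Each Vorinostat array was higher than the DMSO array of the same number, but the groups overlapped widely. The DMSO mean was 4.89 ± 1.83 (SD, n = 3) and the Vorinostat mean 5.36 ± 2.22 (SD, n = 3), a difference of 0.47 (standard error 1.43 from limma). A second probe set of CTSC went the other way, with -0.40, -0.07 and -0.50 within the numbers, and another had a difference of -0.21, so the gene as a whole has no settled direction.
CTSB, a cysteine protease with broad activity, differed by 0.98, -0.31 and -0.02 in numbers 1, 2 and 3, and CTSA, a carboxypeptidase that also shields beta-galactosidase and neuraminidase, by 0.86, -0.44 and 0.83. CTSZ, an exopeptidase, differed by -1.69, -0.40 and 0.30, so its mean difference of -0.60 came mostly from number 1. CTSD, CTSH, CTSL and CTSS had both means under 3. Among them CTSL, a cysteine endopeptidase, was lower in each number, with differences of -0.22, -0.36 and -0.20. CTSS, which trims the invariant chain of MHC class II, had differences of -1.12, 0.20 and 0.22.

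The other hydrolases act on glycans, lipids and peptides. A negative difference was found for 7 of the 10, against 53.1% of all genes and 67.8% of those with a group mean over 3. In number 2 the 10 genes of this class with a probe set were lower, with a median of -0.41, where 55.8% of all genes and 82.9% of those with a group mean over 3 were lower. In number 3 it was 2 of the 10, with a median of 0.16, where the shares were 45.3% and 34.8%. Of the 10, 8 had a group mean over 3. TPP1, a tripeptidyl peptidase, had values of 7.62, 5.75 and 5.67 with DMSO and of 7.61, 3.73 and 5.53 with Vorinostat. Pairs 1 and 3 were nearly level, and pair 2 differed by -2.02. The difference of its means was -0.72 (standard error 1.11 from limma).
PPT1, the thioesterase that removes palmitate from proteins, had values of 7.18, 3.51 and 2.71 with DMSO and 6.63, 1.80 and 2.79 with Vorinostat. Its differences were -0.56, -1.71 and 0.08, again largest in number 2, with -0.73 between the means (standard error 1.73). GUSB, the beta-glucuronidase often used as a reference gene, had values of 7.59, 3.04 and 2.34 with DMSO and 6.84, 2.20 and 2.41 with Vorinostat. Pairs 1 and 2 were lower with Vorinostat and pair 3 was nearly level, and the means differed by -0.51 (standard error 1.92).
MAN2B1, an alpha-mannosidase, had values of 5.35, 3.61 and 3.87 with DMSO and 4.45, 3.19 and 4.49 with Vorinostat, so it was lower in numbers 1 and 2 and higher in number 3. ASAH1, the acid ceramidase, had values of 7.26, 3.99 and 2.92 with DMSO and 7.14, 3.52 and 3.80 with Vorinostat, and the means differed by 0.10. The groups overlapped for both genes.
LIPA, the acid lipase that frees cholesterol from its esters, had the largest positive difference of the 34 genes, 0.86 (standard error 1.34 from limma). It rested on 1 pair. LIPA stood at 4.08 and 6.69 on DMSO and Vorinostat replicate 1, at 2.40 and 2.28 on replicate 2 and at 2.33 and 2.43 on replicate 3, and with both replicate 1 arrays left aside its differences were -0.12 and 0.10. GAA, the acid alpha-glucosidase, and GLA, an alpha-galactosidase, had differences of -0.25 and 0.24. HEXA, a subunit of beta-hexosaminidase, and NEU1, a sialidase, had both means under 3, with differences of -0.01 and -0.36, and NEU1 was lower in each number.

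**Figure D3:**
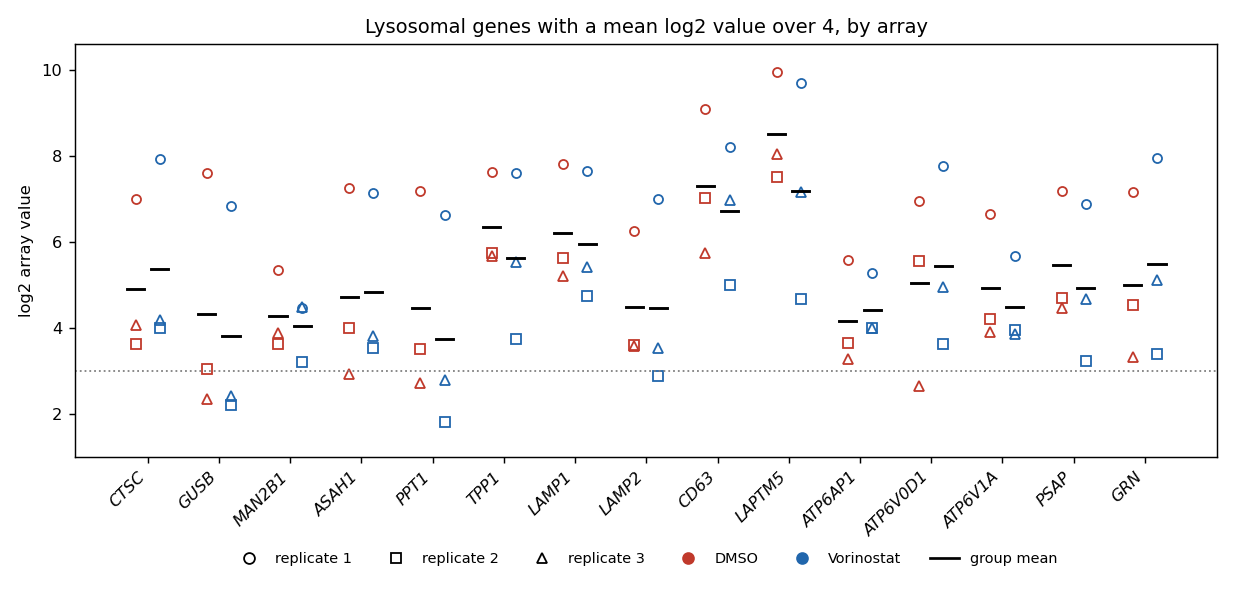
Log2 array values of the 15 lysosomal genes with a mean over 4. Red points are DMSO arrays and blue points Vorinostat arrays, the marker gives the replicate number, black bars are group means of n = 3, and the dotted line is a log2 value of 3. The replicate 1 arrays lie above the other 4 arrays for 14 of the 15 genes, and Vorinostat replicate 2 is the lowest of the 6 for 9.

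Membrane proteins had 6 of 7 differences negative, where 53.1% of all genes and 67.8% of those with a group mean over 3 did. Their median was -0.71 in number 2, against -0.15 and -0.02 in numbers 1 and 3. All genes with a group mean over 3 had a median of -0.64 in number 2. LAPTM5, a lysosomal membrane protein of blood cells that turns down receptor signalling, had the most negative difference of the 34 genes. Its values were 9.94, 7.50 and 8.04 with DMSO and 9.70, 4.66 and 7.16 with Vorinostat. Every pair was lower, with differences of -0.24, -2.85 and -0.88, and the groups overlapped because of the replicate 1 arrays. The DMSO mean was 8.50 ± 1.28 (SD, n = 3) and the Vorinostat mean 7.17 ± 2.52 (SD, n = 3), a difference of -1.32 (standard error 1.41, unadjusted p = 0.387 from limma), with a 95% interval from -4.86 to 2.21. A second probe set of LAPTM5 was also lower in each number, with differences of -0.59, -1.65 and -0.11.
CD63, a tetraspanin of lysosomes and secretory granules, had values of 9.09, 7.02 and 5.74 with DMSO and 8.20, 5.00 and 6.97 with Vorinostat. The pairs differed by -0.90, -2.03 and 1.23, and the groups overlapped. LAMP1 had values of 7.81, 5.62 and 5.20 with DMSO and 7.65, 4.73 and 5.42 with Vorinostat, and LAMP2, its relative that serves chaperone-mediated autophagy, had 6.24, 3.59 and 3.58 with DMSO and 6.98, 2.87 and 3.52 with Vorinostat.
The means of LAMP1 differed by -0.28 (standard error 1.03), and after quantile normalisation of the arrays by 0.11. Those of LAMP2 differed by -0.01 (standard error 1.34), with 0.74, -0.71 and -0.07 in the 3 pairs. SCARB2, the receptor that brings beta-glucocerebrosidase to the lysosome, NPC1, which exports cholesterol, and MCOLN1, a calcium channel, had both means under 3 and differences between -0.10 and 0.13. MCOLN1 was nearly level on all 6 arrays, between 1.86 and 2.10.

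The proton pump subunits gave 2 negative and 2 positive differences. ATP6V0D1, a subunit of the membrane sector, had values of 6.94, 5.55 and 2.64 with DMSO and 7.76, 3.62 and 4.95 with Vorinostat. Its pairs differed by 0.82, -1.93 and 2.31, the largest spread between pairs among the 4 subunits, and the means differed by 0.40 (standard error 1.51 from limma). ATP6V1A, the catalytic subunit, was lower in each number, with values of 6.65, 4.19 and 3.90 with DMSO and 5.67, 3.95 and 3.84 with Vorinostat. Most of its difference of -0.42 (standard error 0.91) lay in number 1.
ATP6AP1, an accessory subunit, had values of 5.56, 3.65 and 3.26 with DMSO and 5.28, 3.996 and 3.98 with Vorinostat. It was higher in numbers 2 and 3. Without the number 1 arrays it alone among the 34 had an unadjusted limma p under 0.05, against 4.69% of all genes. Its difference was then 0.54, with an adjusted p no smaller than 0.949. ATP6V1H, a regulatory subunit, had values of 5.21, 2.04 and 2.40 with DMSO and 4.93, 1.84 and 1.94 with Vorinostat. Its pairs differed by -0.28, -0.21 and -0.46, close to each other, and its difference was -0.31 with a standard error of 1.23 without and 0.107 with the replicate block (unadjusted p = 0.807 and 0.0401 from limma). The Vorinostat mean of ATP6V1H was 2.91, so the size of its difference is poorly measured. Another probe set of ATP6V1H went the other way, with 0.02, 2.36 and 0.12 within the numbers, and a further one had a difference of 0.03. Both had group means under 3.

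Luminal proteins that are not enzymes had medians of 0.81, -1.15 and 0.20 in numbers 1, 2 and 3. GRN, the precursor of the granulins, had values of 7.15, 4.54 and 3.32 with DMSO and 7.96, 3.38 and 5.11 with Vorinostat. Its pairs differed by 0.81, -1.15 and 1.79, so 1 of the 3 opposed the others, and the means differed by 0.48 (standard error 1.504 from limma). PSAP, the precursor of the saposins that present lipids to hydrolases, had values of 7.19, 4.70 and 4.46 with DMSO and 6.88, 3.23 and 4.66 with Vorinostat. Only number 2 showed a difference over 2-fold, of -1.46.
NPC2, which hands cholesterol to NPC1, differed by 0.85, -0.46 and -0.26. TFEB itself was near the lower end of the values on every array, between 1.83 and 2.10, with a difference of 0.09 (standard error 0.118). Its pairs differed by 0.002, 0.165 and 0.089, so it was level in number 1. Another probe set of TFEB, also dim, had -0.08, -0.28 and 0.42. SQSTM1, the autophagy receptor p62, stood at 4.57, 2.26 and 1.23 with DMSO and at 2.57, 2.14 and 2.02 with Vorinostat. Its pairs differed by -2.00, -0.12 and 0.80.

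Differences over 2-fold within a pair were common in number 2. PPT1, TPP1, CD63, LAPTM5, ATP6V0D1, PSAP and GRN were over 2-fold lower in it, which is 7 of the 34 (20.6%) against 7.58% of all genes, and 7 of the 23 with a group mean over 3 (30.4%) against 35.0% of all such genes. In number 3, CD63, ATP6V0D1 and GRN were over 2-fold higher, 3 of the 34 (8.82%) against 3.38% of all genes and 3 of the 23 (13.0%) against 13.3%. These 3 genes were thus over 2-fold lower in number 2 and over 2-fold higher in number 3, which was so for 1.37% of all genes and for 6.76% of those with a group mean over 3. In number 1, CTSS, CTSZ and SQSTM1 were over 2-fold lower, 3 of the 34 (8.82%) against 5.56% of all genes, but CTSZ alone had a group mean over 3, 1 of the 23 (4.35%) against 15.6% of all such genes. LIPA was over 2-fold higher in number 1, which is 1 of the 34 (2.94%) against 3.07% of all genes and 1 of the 23 (4.35%) against 8.21%.
The 10 housekeeping genes with a probe set, which include ACTB, GAPDH and B2M, had medians of 0.07, -1.74 and -0.33 in numbers 1, 2 and 3. The 34 lysosomal genes had medians of -0.23, -0.40 and 0.14, and those with a group mean over 3 had -0.15, -0.46 and 0.20. Over all genes with a group mean over 3 the medians were -0.18, -0.64 and 0.19. In all 3 numbers the lysosomal genes lay nearer to these than to the housekeeping genes, but the sets were not matched for brightness. For the 15 lysosomal genes with a mean over 4 the medians were -0.24, -0.89 and 0.20. Over all genes with a mean over 4 they were -0.11, -1.26 and 0.27. The part of array signal in the lysosomal values was not tested.

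**Figure D4:**
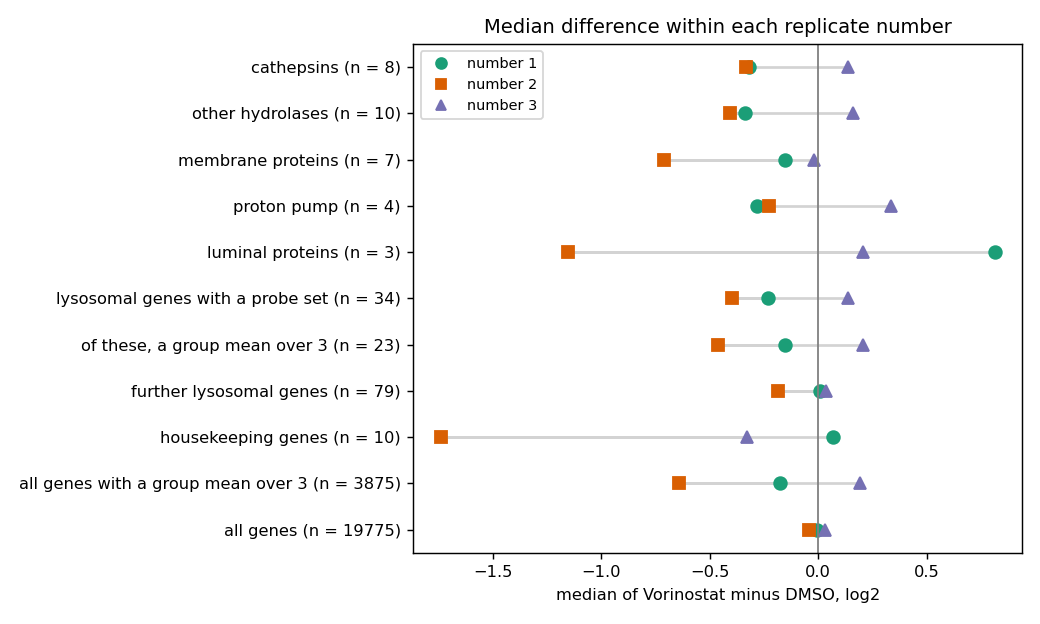
Median of Vorinostat minus DMSO on the log2 scale within each replicate number, for the lysosomal classes, further lysosomal genes, housekeeping genes and all genes. Points are medians over the genes counted in brackets, and the grey line joins the 3 numbers. The square of number 2 is the lowest point of every row but the proton pump subunits, and stands at -1.74 for the housekeeping genes and -0.64 for all genes with a group mean over 3.

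Probe sets for the same gene gave a further view of the size of the error. The 34 genes had 80 probe sets between them, of which 34 had a group mean over 3, and 0 of the 80 had an unadjusted p under 0.05 from limma. Of 8 genes with 2 or more such probe sets, CTSB, TPP1, LAMP1 and LAPTM5 had 1 sign in all of them. CTSC, ASAH1, PSAP and GRN did not. For GRN, the probe sets had differences of 0.48, 0.43 and -0.21, but all 3 were lower in number 2 and higher in numbers 1 and 3. A shared sign of the means did not give shared signs within the numbers. For LAMP1, the probe set not used here had 1.12 in number 1 and -1.67 in number 2, against -0.15 and -0.89 for the one used. For TPP1, the one not used had -1.17, 0.16 and 0.28 in numbers 1, 2 and 3, against -0.01, -2.02 and -0.14. For CTSB, it had 1.44, 0.12 and 0.26, against 0.98, -0.31 and -0.02. Of the 80 probe sets 13 were lower in each number and 6 were higher, where 14.7% and 12.4% of all probe sets were.

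**Figure D5:**
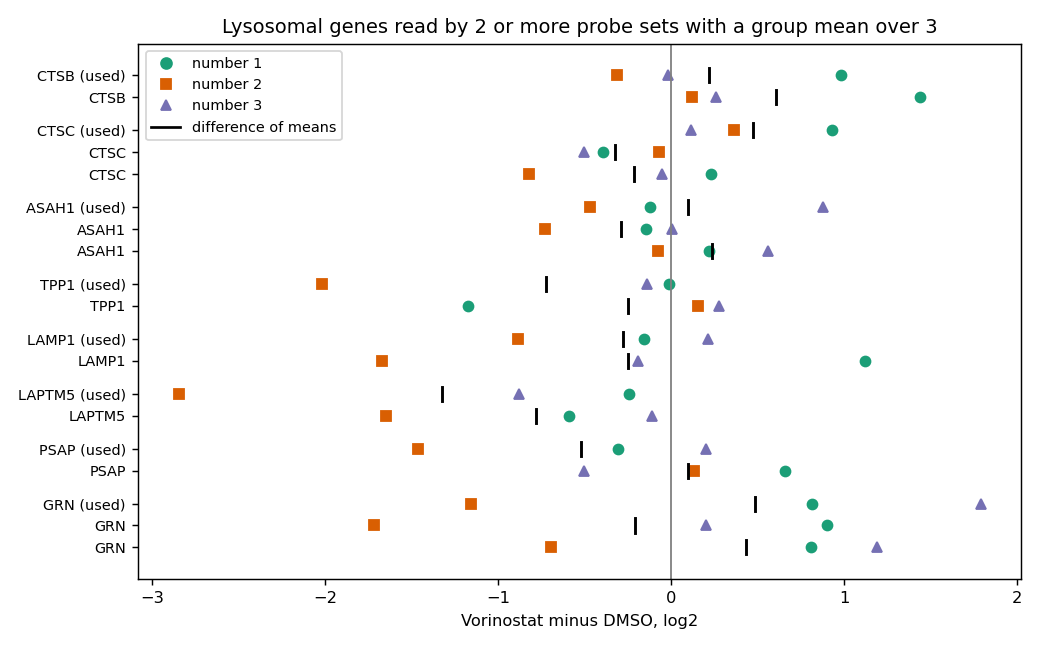
Differences within replicate numbers for the 8 lysosomal genes read by 2 or more probe sets with a group mean over 3, on the log2 scale. Each line is 1 probe set, the one used is marked, points are the 3 numbers and black bars the difference of the group means (n = 3). Both probe sets of LAPTM5 have all 3 points below 0, and the 3 probe sets of CTSC lie on either side of 0.

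Further genes of the lysosome were taken from hand-written lists of other hydrolases, other membrane proteins, other proton pump subunits and sorting proteins with relatives of TFEB. Of 88 genes listed, 79 had a probe set, and 32 of these had a group mean over 3. By limma 0 of the 79 had an unadjusted p under 0.05, against 0.991% of all genes. A negative difference was found for 46 of the 79, against 53.1% of all genes. The median difference of the 79 was -0.10, against -0.02 for all genes, with 0.01, -0.19 and 0.03 in numbers 1, 2 and 3. With the replicate block 3 were lower and 2 were higher at an unadjusted p under 0.05 from limma, against 3.12% and 2.25% of all genes.
The lower ones were GALC, the galactosylceramidase, and the pump subunits ATP6V0B and ATP6AP2. With the block ATP6V0B, at a difference of -1.08 and an unadjusted p of 0.0424 from limma, was the 1 gene of the 79 past the threshold of the study, against 0.829% of all genes. GALC, whose differences were -1.37, -1.17 and -0.36, had an unadjusted p of 0.0134 with the block and 0.254 without it from limma. The higher ones were SCPEP1, a serine carboxypeptidase, with 0.79, 0.53 and 0.63, and AP3B1, a subunit of the adaptor that sorts cargo to lysosomes, with 0.48, 1.00 and 0.38. GALC, ATP6AP2 and AP3B1 were named after their values were seen.
Among genes with a group mean over 3, the most negative differences were those of ATP6V0B, the pump subunit of the proton-carrying ring, with -1.08, and of ABCA2, a lipid transporter, with -0.98. The most positive were those of FUCA1, the alpha-fucosidase, with 1.10, and of SCPEP1 with 0.65. FUCA1 stood at 2.67 and 6.39 on DMSO and Vorinostat replicate 1 but at 1.94 and 1.54 on replicate 2 and at 1.75 and 1.72 on replicate 3, so that its difference, like that of LIPA, rested on pair 1. All 14 other proton pump subunits with a probe set were lower in number 2, with a median of -0.71, against 55.8% of all genes and 82.9% of those with a group mean over 3. In number 3 it was 7 of the 14, against 45.3% and 34.8%. Of the 14, 10 had a group mean over 3. TFE3, the relative of TFEB, had values of 5.00, 3.62 and 4.36 with DMSO and 5.56, 3.36 and 4.29 with Vorinostat, a difference of 0.08 (standard error 0.653 from limma).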

How the data were processed

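Values for 6 arrays, 3 in each group, were read from 1 table that the authors deposited, with a log2 value for each probe set. The methods give Partek Genomics Suite as the program into which the arrays were loaded. MAS5 and RMA stand in the processing notes of the submitters, without a version or a statement of which made the values. The log2 scale was read from the values. Arrays were not pooled, and their upper percentiles differ. Their number limits the precision.

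Of 54675 probe sets, 62 controls were left out and 54613 tested with no further normalisation or filter using lmFit and eBayes of limma 3.58.1 under R 4.3.3, with Benjamini-Hochberg adjustment over all. Of these, 41091 name 1 gene, 1801 name several and 11721 are unnamed here. Names come from the platform annotation, updated through gene IDs. The fit was tested on simulated data with independent noise on each array. Those data lack the shared brightness of the replicate 1 arrays, so the test does not give the error rate on the real arrays. The log2 level of 3, and the genes and lists, were chosen with earlier results of these data known.

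Per-array values are given for genes with a mean over 4, an unadjusted p under 0.05, means over 2-fold different or groups apart, and further lysosomal genes were named by the largest 2 rises and 2 falls with a group mean over 3 when none passed. Deviations of same-numbered arrays from their group means correlated at 0.874, 0.599 and 0.672 over probe sets, each above 0.1, so the numbers were taken to pair the arrays. Numbers 2 and 3 were not told apart, since DMSO replicate 3 and Vorinostat replicate 2 gave 0.695. Alternatives were the replicate block, quantile normalisation, median centring, the methods' t-test, a filter on dim probe sets, the mean of all probe sets of a gene, and leaving out arrays. Promoter sequences are from RefSeq on GRCh38.p14, with 28 of 36 genes matched by gene ID.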

Additional observations from a re-analysis of the deposited data

How the results depend on the processing

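Under each setting tried, 0 of the 34 genes met the threshold of the study. The count at an unadjusted p under 0.05 was 0, and it was 1 with the replicate block, which changed no other call, and 1 without both number 1 arrays. The shares of all genes were 5.37% with the block and 4.69% without those arrays. With 1 array left out the count ranged from 0 to 1, the gene being CTSD without DMSO replicate 3, against 1.65% of all genes. CTSD had both group means under 3. The median difference of -0.16 ranged from -0.78 without Vorinostat replicate 1 to 0.58 without DMSO replicate 1, fits that keep a bright replicate 1 array in 1 group only. It was -0.52 without DMSO replicate 3, 0.27 and 0.13 when Vorinostat replicate 2 or 3 was left out, and lay between -0.24 and -0.01 under the settings that keep the pairs. Lower in each remaining number were 10 genes without both number 1 arrays, against 25.4% of all genes, and higher were 5, against 24.0%. Without both number 2 arrays, a setting chosen after seeing the data, 7 were lower, against 23.3%, and 8 were higher, against 26.6%. The count higher in each number was 1 after median centring, 1 after the filter on dim probe sets and 0 with the mean of all probe sets. Signs turned for CTSC (-0.00557) and LAMP2 (0.00909) with the mean of all probe sets, for LAMP1 (0.11) after quantile normalisation and for MAN2B1 (0.0932) without both number 1 arrays.

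With 1 array left out, the difference ranged from -0.81 to 1.52 for CTSC, -2.02 to 1.13 for GUSB, -0.57 to 0.30 for MAN2B1, -1.06 to 1.36 for ASAH1, -2.17 to 0.63 for PPT1, -1.72 to 0.23 for TPP1, -1.13 to 0.52 for LAMP1, -1.28 to 0.87 for LAMP2, -1.34 to 0.34 for CD63, -0.19 to 0.97 for ATP6AP1, -0.80 to 1.35 for ATP6V0D1, -1.02 to 0.44 for ATP6V1A, -1.50 to 0.35 for PSAP and -0.75 to 1.56 for GRN. LAPTM5 was the 1 gene of the 15 that kept its sign, from -2.59 to -0.06.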

Other observations

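GLB1, the beta-galactosidase of the lysosome, was read by a probe set that also names TMPPE, with log2 values of 6.20, 2.60 and 2.08 with DMSO and 5.51, 2.44 and 2.27 with Vorinostat. The replicate 1 arrays were again the highest, and the groups overlapped. CD68, a membrane glycoprotein of macrophages, was read by a probe set that also names SNORA67, with values between 1.83 and 2.96 on the 6 arrays.

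Of the 80 probe sets, 1 had all Vorinostat arrays below all DMSO arrays. Over all genes, with 1 probe set each, the groups lay apart in either direction for 4.25%, so 1 among 80 is no more than that share. The probe set was a dim one of HEXA that was not used here, with values of 1.52, 1.55 and 1.44 with DMSO and 1.43, 1.41 and 1.34 with Vorinostat, a difference of -0.11 (standard error 0.0863, adjusted p = 1 from limma).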
